A study of Mus musculus with 19 samples.

Results

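The effect of losing Med1 in adult brown fat was set against its effect in embryonic brown fat, gene by gene. The comparison used the 11 arrays of interscapular brown adipose tissue among the 19 arrays of the series, 7 from embryos and 4 from adults, and covered 22180 genes. Embryos were taken at E17.5 and all carried Myf5-Cre. Their 3 control arrays were of the genotype Myf5CreMed1f/w, in which Cre meets 1 floxed and 1 wild-type Med1 allele, and their 4 knockout arrays were of the genotype Myf5CreMed1f/f, in which both alleles are floxed. Adults were 10 weeks old. Their 2 control arrays were of the genotype Med1f/f, with both alleles floxed and no Cre, and their 2 knockout arrays were of the genotype AdipoqCreMed1f/f. The embryonic effect below is the mean of the embryonic knockout arrays minus the mean of the embryonic control arrays on the log2 scale. The adult effect is the same difference in adults, and the difference of effects is the adult effect minus the embryonic effect. Levels were not compared between the ages. Age, the Cre driver, the presence of Cre and of a wild-type allele in the controls, and the number of arrays all change together between the 2 experiments, so their parts in a difference of effects cannot be told apart. The labels do not say whether the arrays came from separate animals or litters or from pooled tissue. The p-values therefore speak of array-to-array spread, which may be technical.

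MED1 is a subunit of Mediator, the complex that links DNA-bound transcription factors to RNA polymerase II. It binds nuclear receptors, among them PPARgamma, the central regulator of fat cell formation, and PPARalpha, which drives genes of fatty acid use. Brown fat burns fatty acids in its mitochondria and releases the energy as heat through UCP1, a proton channel of the inner membrane. Myf5-Cre acts in precursors shared by skeletal muscle and brown fat, before brown fat cells form. Adipoq-Cre is driven by the promoter of the adiponectin gene and acts in fat cells that have already matured.

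Med1 itself read 6.94, 7.33 and 7.82 on the embryonic control arrays and 6.88 to 7.10 on the 4 embryonic knockout arrays. These groups overlapped, and the embryonic effect was -0.35 ± 0.22 (standard error, as after every ± below; limma adjusted p = 0.51). In adults Med1 read 5.99 and 6.90 in controls and 5.28 and 5.13 in knockouts. The adult groups were apart, with an effect of -1.24 ± 0.29 (adjusted p = 0.029), and the difference of effects for Med1 did not pass (-0.895 ± 0.37, adjusted p = 0.261). The sources used here do not name the exons that the floxed allele loses, so this signal does not check the deletion. The adult Med1 call was lost without adult control array 2 (-0.787, adjusted p = 0.144), without knockout array 1 (adjusted p = 0.0736) and without knockout array 2 (adjusted p = 0.127).

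The tissue label was checked against its markers. Ucp1 and Cidea, markers of brown fat cells, and Adipoq, Fabp4, Plin1 and Lpl, markers of fat cells in general, lay above the array's median signal (3.49 to 3.57 in the embryo, 2.87 to 2.89 in the adult) on each of the 11 arrays. So did the brown fat markers Dio2 and Prdm16. Elovl3, another brown fat marker, lay above the median on the adult arrays and on embryonic control array 3 (4.74). It lay below the median on the other embryonic arrays (2.90 to 3.40). The embryonic arrays also carried skeletal muscle RNA. The muscle list averaged 6.05, 6.13 and 5.22 on the embryonic control arrays, with control array 3 the low one, and 6.59 to 6.75 on the embryonic knockout arrays. On the adult arrays it averaged 3.12 and 3.79 in controls and 3.02 and 3.44 in knockouts. In bulk tissue, fewer cells of a type and less of an RNA in each cell cannot be told apart.

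The difference of effects passed for 441 of the 22180 genes (1.99%) at a limma adjusted p below 0.05. It was higher in adults for 285 genes (1.28% of all) and lower for 156 (0.703%). At the separate ages, 814 genes were called in the embryo (3.67%), 471 higher (2.12%) and 343 lower (1.55%). In the adult 1676 were called (7.56%), 979 higher (4.41%) and 697 lower (3.14%). The adult effect was the one called alone for most of the differences. Of the 285 higher differences, 253 were called higher in the adult and not in the embryo, 12 were called lower in the embryo only, 7 were called in opposite directions, 4 were called higher at both ages and 9 were called at neither age. Of the 156 lower differences, 105 were called lower in the adult only, 35 were called higher in the embryo only, 4 were called in opposite directions, 4 were called lower at both ages and 8 at neither. The higher differences had a median of 1.03 log2 units and 152 of them reached at least 1, while the lower ones had a median of -1.01 and 80 of them fell by at least that much. Over all genes the median difference was 0.015, with a median standard error of 0.183. An unadjusted limma p below 0.05 in the difference was found for 3611 of the 22180 genes. That is the background for the unadjusted counts given for the lists below.

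These counts rest on 1 estimate of each gene's spread shared by both ages, since the adult groups hold 2 arrays each. With a spread of its own for each age, 177 differences passed, 166 of them among the 441, and the counts were 257 in the embryo and 6 in the adult. With weights estimated for each array the counts were 128, 1494 and 397. Embryonic control array 3, the low one for muscle genes, was also the highest embryonic control for lists described below. Its mean was 7.224 for brown fat genes (against 6.791 and 6.875) and 9.364 for mature adipocyte genes (against 8.811 and 8.998). For fatty acid oxidation it was 9.058 (against 8.588 and 8.804). It was the lowest for cell cycle genes (6.663, against 6.89 and 6.957) and fibroblast genes (7.95, against 8.508 and 8.229). Without embryonic control array 3, 265 differences passed (234 of them among the 441) and 92 genes were called in the embryo. Leaving out embryonic control array 2 gave 292 differences and 530 embryonic calls. Leaving out embryonic knockout arrays 1, 2 or 3 gave 288, 220 and 206 differences and 355, 406 and 393 embryonic calls, and leaving out array 4 gave 294 and 203. No called difference changed its sign in any of the 23 alternatives, and 74 of the 441 kept their call in all of them.

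**Figure D1:**
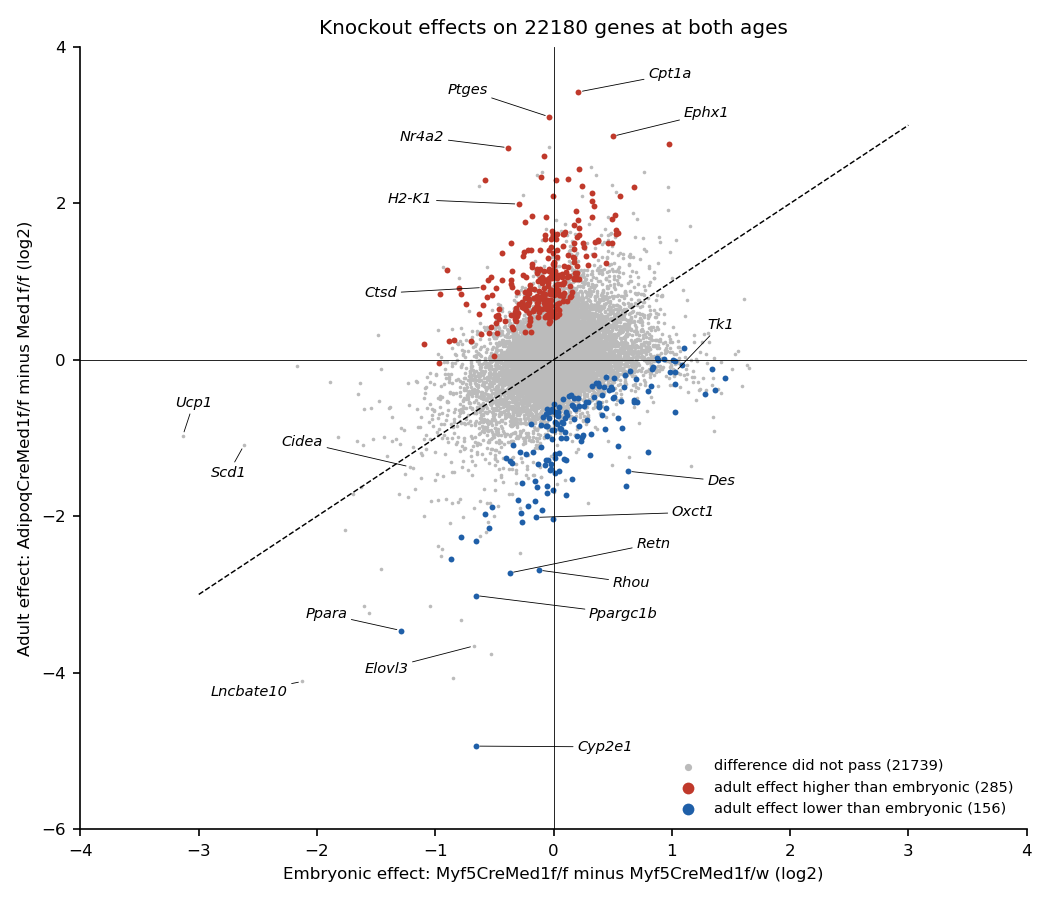
Each point is 1 of 22180 genes, placed by its embryonic effect (horizontal, log2) and its adult effect (vertical, log2); the dashed line marks equal effects. The 285 genes in red and 156 in blue are those whose difference of effects passed, and many of them lie close to the vertical axis, where the embryonic effect is near 0.

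Among the named genes whose difference of effects passed, the promoters of the 2 with the highest and the 2 with the lowest difference are shown, so that the start of each gene that the results turn on can be seen. Each is the 250 bases before the annotated start, from RefSeq on GRCm38.p6, written 5′ to 3′ on the gene's own strand. Capitals mark matches, on either strand, to 6 motifs searched by their exact letters. These were AGGTCA (a nuclear receptor element), TGACGTCA (the cAMP response element), CCAAT (the NF-Y box), CACGTG (an E-box), TATAAA (the TATA box) and GGGCGG (a GC box).
Cpt1a, chr19:3323051-3323300, plus strand: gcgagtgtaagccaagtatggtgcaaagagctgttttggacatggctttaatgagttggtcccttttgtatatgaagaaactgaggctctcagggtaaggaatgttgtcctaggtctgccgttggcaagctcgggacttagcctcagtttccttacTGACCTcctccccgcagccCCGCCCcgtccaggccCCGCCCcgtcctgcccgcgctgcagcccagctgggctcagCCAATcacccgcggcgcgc
Ptges, chr2:30903298-30903547, minus strand: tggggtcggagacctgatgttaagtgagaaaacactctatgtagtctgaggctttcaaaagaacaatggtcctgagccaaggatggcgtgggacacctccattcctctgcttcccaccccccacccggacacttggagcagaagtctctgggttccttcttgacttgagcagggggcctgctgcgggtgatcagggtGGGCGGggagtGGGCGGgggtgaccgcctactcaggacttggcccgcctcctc
Cyp2e1, chr7:140763569-140763818, plus strand: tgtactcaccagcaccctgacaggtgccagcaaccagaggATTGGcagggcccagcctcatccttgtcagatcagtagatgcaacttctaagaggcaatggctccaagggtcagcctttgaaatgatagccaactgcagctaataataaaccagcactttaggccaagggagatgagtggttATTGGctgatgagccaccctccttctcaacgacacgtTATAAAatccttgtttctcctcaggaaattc
Rhou, chr8:123653679-123653928, plus strand: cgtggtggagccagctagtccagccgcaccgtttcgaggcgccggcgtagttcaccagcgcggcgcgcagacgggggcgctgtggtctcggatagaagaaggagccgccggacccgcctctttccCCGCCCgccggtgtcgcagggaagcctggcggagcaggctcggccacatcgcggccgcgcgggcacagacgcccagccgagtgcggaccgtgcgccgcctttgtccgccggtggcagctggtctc

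Of these 4, the Cpt1a window held AGGTCA, read on the opposite strand from 94 to 89 bases before the start. It also held GC boxes on that strand at 75 to 70 and 59 to 54 bases and a CCAAT on the gene's strand at 19 to 15 bases. Ptges held GC boxes at 53 to 48 and 42 to 37 bases. The Cyp2e1 window was the one with a TATA box, at 31 to 26 bases, and it had CCAAT matches on the opposite strand at 210 to 206 and 68 to 64 bases. Rhou held 1 GC box, on the opposite strand at 125 to 120 bases. Among all 32851 promoter windows of this length, 14.0% held AGGTCA, 32.7% a GC box, 33.8% CCAAT, 12.4% TATAAA, 6.02% CACGTG and 1.55% TGACGTCA. Among the genes whose difference of effects passed and that had an entry, AGGTCA stood in 12.7% of 213 promoters of the higher genes and 9.6% of 125 promoters of the lower genes, against 12.4% of 16990 tested genes with an entry. For the GC box these shares were 51.6%, 58.4% and 43.2%. A match is a string of letters and was not tested as a binding site.

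Among named protein-coding genes, the highest difference of effects belonged to Cpt1a, the enzyme that commits long-chain fatty acids to import into mitochondria. Its signal was 4.45 and 3.87 in adult controls and 7.14 and 8.04 in adult knockouts, a 10.7-fold rise (3.42 ± 0.28, adjusted p = 0.000245). On embryonic arrays it was 5.61, 6.03 and 6.03 in controls and 5.96, 6.03, 6.29 and 6.13 in knockouts. The adult groups were far apart and the embryonic groups overlapped, at an effect of 0.21 ± 0.21. Its difference of effects was 3.22 ± 0.35 (adjusted p = 0.0034).

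Ptges, the enzyme that makes prostaglandin E2, read 3.30 and 3.69 in adult controls and 7.10 and 6.10 in adult knockouts. Its embryonic arrays were 4.02, 4.04 and 3.86 in controls and 4.10, 4.06, 4.02 and 3.56 in knockouts, so that only the adult groups separated. Between the effects the difference was 3.14 ± 0.36 (adjusted p = 0.0041). Nr4a2, an orphan nuclear receptor known as an early-response gene, was 5.46 and 5.45 in adult controls and 8.93 and 7.40 in adult knockouts. In the embryo its knockouts (4.62 to 5.04) touched its controls (5.04 to 5.32), with an effect of -0.38 ± 0.28 that did not pass. Its difference of effects was 3.10 ± 0.46 (adjusted p = 0.0104), with an adjusted p = 0.0704 when each age had a spread of its own.

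Aqp11, a water channel of internal membranes, moved from 4.81 and 4.77 in adult controls to 6.73 and 7.43 in adult knockouts. In the embryo its knockout arrays (5.93 to 6.29) lay below its control arrays (6.34 to 6.92), and the difference of effects was 2.88 ± 0.29. Ephx1, the microsomal epoxide hydrolase, rose 7.25-fold in the adult, from 5.80 and 5.48 to 8.39 and 8.60. Its embryonic effect pointed the same way without passing (0.50 ± 0.14, adjusted p = 0.078), and the difference of effects was 2.36 ± 0.23. Enpep, a cell-surface aminopeptidase, was 6.55 and 6.43 in adult controls against 8.68 and 9.18 in knockouts, with a difference of effects of 2.22 ± 0.30.

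H2-K1, a heavy chain of the class I complex that presents peptides to T cells, was 7.73 and 7.70 in adult controls and 9.65 and 9.76 in adult knockouts. Embryonic arrays gave 5.32 to 5.79 in controls and 4.98 to 5.38 in knockouts, and the difference of effects was 2.28 ± 0.21. Class I genes are near-identical in places, so signal of related genes may be included. Orm1, an acute-phase protein of plasma with near-identical relatives that may share its signal, was 7.60 and 7.91 in adult controls and 9.88 and 10.26 in adult knockouts. Its difference of effects was 2.19 ± 0.36, and without adult knockout array 2 the call was lost (2.00, adjusted p = 0.0591). Atp4b, the beta subunit of the gastric proton pump, stood at 5.14 and 3.59 in adult controls, a wide gap, and at 7.10 and 6.84 in knockouts. Its difference of 2.68 ± 0.46 lost its call when each age had a spread of its own (adjusted p = 0.102) and without adult knockout array 1 (2.55, adjusted p = 0.0526). Cdh9, a cadherin, was 2.85 and 2.54 in adult controls and 5.27 and 4.80 in adult knockouts. All 7 embryonic arrays of Cdh9 lay under their lower quartile of signal (2.23 to 2.53), so its difference of 2.44 ± 0.20 compares an adult rise with an embryonic signal too dim to show a fall.

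Cyp2e1, a cytochrome P450 that oxidises ethanol and ketones, had the lowest difference of effects. Its adult controls read 7.71 and 9.30 and its adult knockouts 3.58 and 3.55, a 30.7-fold fall (-4.94 ± 0.54). In the embryo the controls were 4.41, 3.42 and 5.10 and the knockouts 3.83, 3.83, 3.13 and 3.80, so the groups overlapped at an effect of -0.66 ± 0.42. Embryonic control array 2 and knockout array 3 lay below their medians (3.57 and 3.56), which limits the fall that could show. For Cyp2e1 the difference of effects was -4.28 ± 0.68 (limma adjusted p = 0.0146).

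Rhou, a small GTPase, was 7.01 and 6.45 in adult controls and 4.23 and 3.86 in adult knockouts, and overlapped between groups in the embryo (7.16 to 7.80 against 7.24 to 7.73). The difference for Rhou was -2.56 ± 0.33. Ppargc1b, a coactivator of mitochondrial genes, fell 8.08-fold in the adult, from 7.73 and 7.01 to 4.21 and 4.51. In the embryo it stood at 7.70, 8.33 and 8.30 in controls and 7.24, 7.70, 7.70 and 7.16 in knockouts, an effect of -0.66 ± 0.22 that did not pass. The direction was thus the same at both ages and the difference of effects was -2.35 ± 0.36. Retn, which encodes the secreted protein resistin, had the same difference, -2.35 ± 0.36, from 9.0 and 9.13 in adult controls to 6.69 and 5.99 in adult knockouts.

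Ppara, the nuclear receptor of fatty acid use that MED1 is known to bind, fell at both ages and fell further in the adult. Embryonic controls were 7.61, 7.90 and 8.51 and embryonic knockouts 6.48, 7.04, 7.01 and 6.34. Adult controls were 7.93 and 7.36 and adult knockouts 3.76 and 4.61. The groups were apart at both ages, with falls of 2.45-fold and 11-fold. Its difference of effects was -2.17 ± 0.46 (adjusted p = 0.0424). That call was kept in 8 of 12 other settings and in 2 of 11 fits that left out 1 array, where the value ran from -2.59 to -1.75.

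Oxct1, the enzyme by which tissues burn ketone bodies, had little spread on any array. It was 8.89 and 8.89 in adult controls and 6.90 and 6.86 in adult knockouts, against 8.90, 8.58 and 8.82 in embryonic controls and 8.69, 8.64, 8.48 and 8.67 in embryonic knockouts. The adult fall was 4.04-fold, the embryonic effect was -0.15 ± 0.09, and the difference of effects was -1.86 ± 0.15 (adjusted p = 0.0012). Slc40a1, the iron exporter ferroportin, was 6.57 and 6.75 in adult controls and 5.21 and 4.66 in adult knockouts. It overlapped between groups in the embryo, and its difference was -1.84 ± 0.26.

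Des, Fgfr2 and Cks2 had effects of opposite sign at the 2 ages. Des, which encodes the muscle filament protein desmin, rose 1.55-fold in embryonic knockouts (8.47, 8.31, 7.93 and 7.82 against 7.56, 7.63 and 7.32) and fell 2.68-fold in adult knockouts (5.82 and 5.76 against 7.13 and 7.30). The difference for Des was -2.05 ± 0.25 and was kept in all 23 alternatives. Fgfr2, a receptor of fibroblast growth factors, had an embryonic effect of 0.61 ± 0.28 and an adult effect of -1.61 ± 0.37. For Cks2, a partner of cyclin-dependent kinases, these were 0.79 ± 0.25 and -1.18 ± 0.33, and neither passed. Cks2 was dim in the adult, at 3.78 and 2.92 in controls and 2.23 and 2.12 in knockouts. The knockout values lay near the lower quartile of their arrays (2.22 and 2.23). The differences of Fgfr2 (-2.22 ± 0.47) and Cks2 (-1.97 ± 0.42) both had an adjusted p = 0.042 and kept their calls in 2 of 11 fits that left out 1 array, with highest adjusted p-values of 0.127 and 0.112 over the alternatives.

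**Figure D2:**
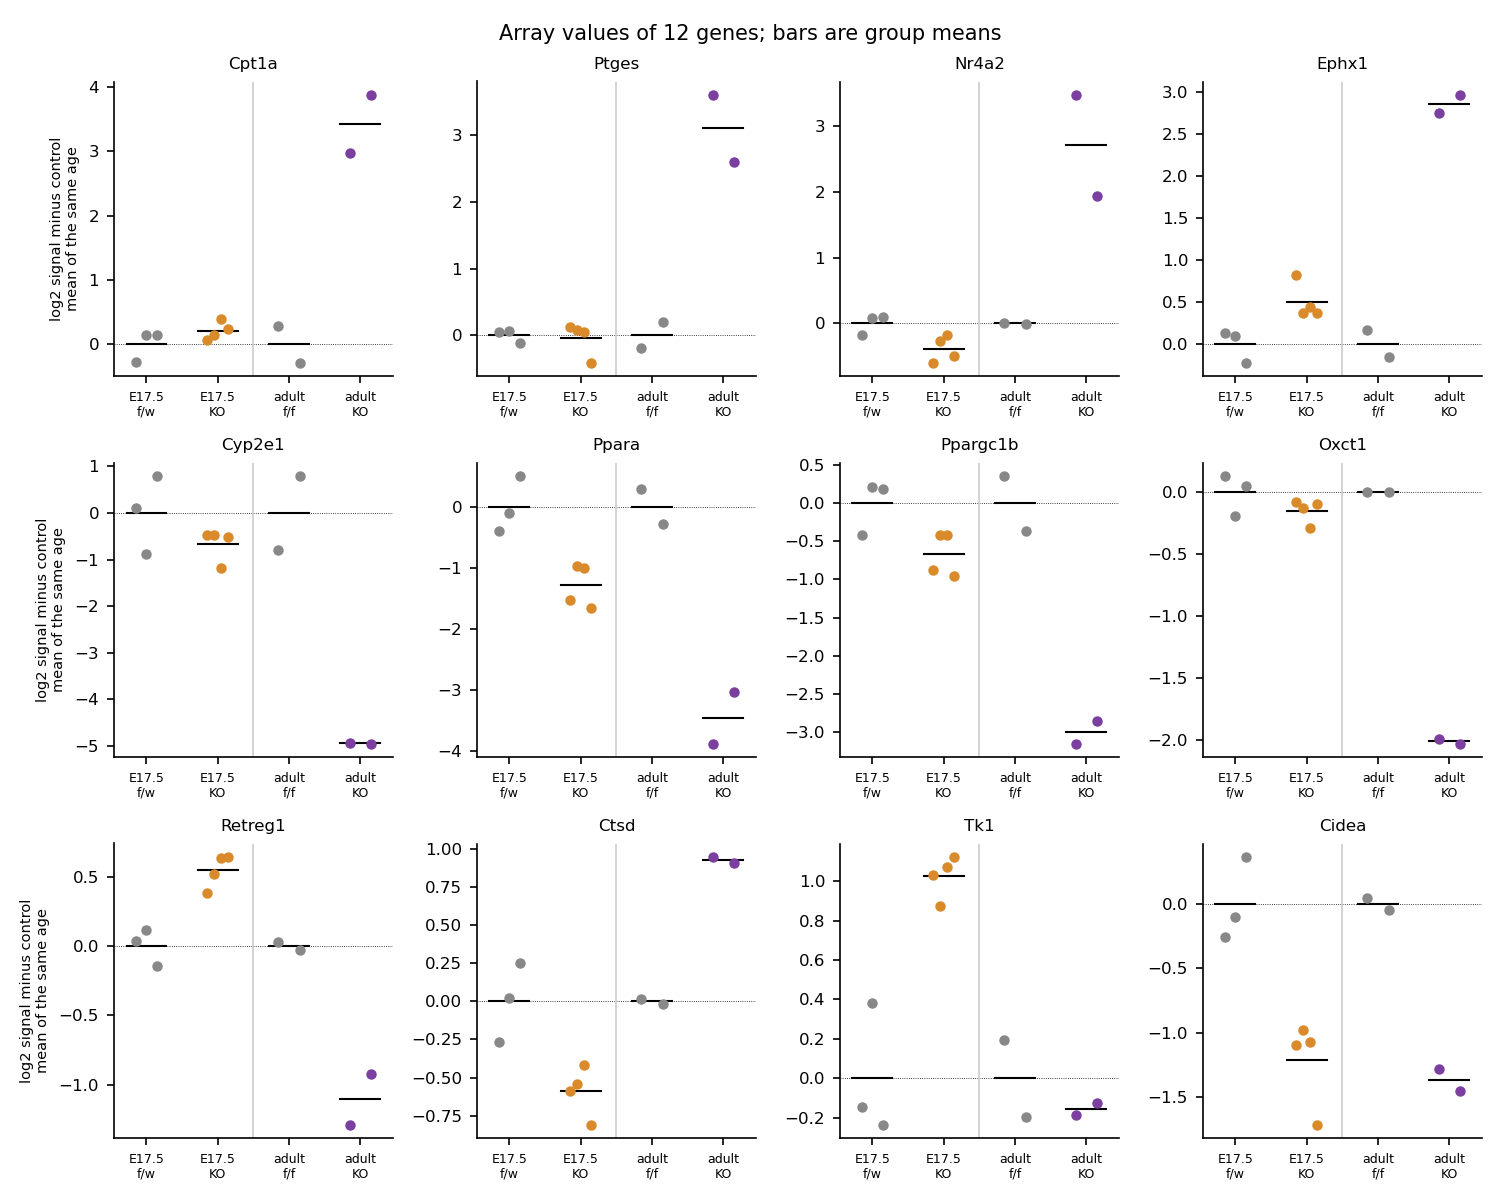
Every array's log2 signal for 12 genes, minus the control mean of the same age, for embryonic controls (E17.5 f/w), embryonic knockouts (E17.5 KO), adult controls (adult f/f) and adult knockouts (adult KO); bars are group means and the vertical scale differs between panels. Cpt1a, Ptges and Ephx1 stand apart in adult knockouts, Retreg1 and Ctsd move in opposite directions at the 2 ages, and Cidea falls at both.

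A set of 24 measured genes of fat biology, among them regulators, thermogenic genes and lipid enzymes, was described whatever the result; Cpt1b, which belongs to it, was not analysed here. Of these 24, Ppara was the 1 whose difference of effects passed. Ucp1 fell 8.79-fold in the embryo, from 10.64, 10.07 and 11.59 in controls to 7.37, 8.34, 7.57 and 7.23 in knockouts (-3.14 ± 0.37, adjusted p = 0.00857). In the adult it was 12.09 and 12.50 in controls and 10.90 and 11.75 in knockouts, an effect of -0.97 ± 0.48 that did not pass (adjusted p = 0.28). The knockouts lay lower at both ages. The difference of effects, 2.16 ± 0.60, had a 95% interval of 0.83 to 3.50 and an adjusted p = 0.107, and it passed in the fit that took in all 19 arrays (adjusted p = 0.0229).

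Elovl3, an enzyme of fatty acid elongation that is strongly tied to active brown fat, was called in the adult and not in the embryo. It fell 12.6-fold in the adult, from 6.35 and 8.10 to 3.28 and 3.85, and in the embryo stood at 3.40, 2.90 and 4.74 in controls and 2.90 to 3.17 in knockouts. The adult groups were apart and the embryonic ones overlapped. Embryonic control arrays 1 and 2 lay below their medians (3.54 and 3.57), so an embryonic fall had little room to show. The difference of effects was -2.99 ± 0.74 (adjusted p = 0.0721) and passed without embryonic control array 3 (-3.52, adjusted p = 0.0304) and without adult control array 1 (-3.86, adjusted p = 0.0282). Cidea, a lipid droplet protein, fell by nearly the same amount at both ages. Its arrays went from 11.14, 11.29 and 11.76 to 10.30, 10.42, 10.32 and 9.68 in the embryo and from 11.82 and 11.73 to 10.49 and 10.32 in the adult. The effects were -1.21 ± 0.19 and -1.37 ± 0.24, and the interval of their difference ran from -0.84 to 0.53.

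Pdk4, a kinase that limits the use of pyruvate, also fell at both ages (-1.31 ± 0.26 and -1.72 ± 0.34), with a difference of -0.41 ± 0.42. Scd1, the main fatty acid desaturase, fell 6.14-fold in the embryo (8.99, 8.57 and 10.31 against 6.31 to 7.03), and its adult effect of -1.09 ± 0.46 did not pass. The difference for Scd1 was 1.53 ± 0.58 (adjusted p = 0.23). Pparg and Cebpa, regulators of fat cell identity, fell in the adult by 1.63-fold and 2.89-fold. Their embryonic effects of -0.31 ± 0.09 and -0.49 ± 0.16 did not pass, and neither did the differences of effects, -0.40 ± 0.15 and -1.04 ± 0.26 (adjusted p = 0.22 and 0.0759).

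In a fit that did not pair arrays by replicate number, several of these genes were too variable for a difference to be seen. Dio2, which activates thyroid hormone, read 5.07 and 9.49 in adult controls and 4.99 and 7.50 in adult knockouts, and its difference of 0.62 ± 1.41 had an interval from -2.51 to 3.75. Ppargc1a, an inducible coactivator, was 7.63 and 10.04 in adult controls and 7.62 and 8.81 in adult knockouts, with an interval of -1.82 to 1.56. On both genes the replicate 2 arrays of the adult were the high ones in each genotype. For Fabp4, a fatty acid carrier of fat cells, the interval was narrow (-0.33 to 0.34), and for Prdm16, a regulator of brown fat identity, it was -0.57 to 0.70. Adipoq, whose promoter drives the adult Cre, had effects of -0.21 ± 0.08 and 0.28 ± 0.11 and a difference of 0.49 ± 0.14 that did not pass (adjusted p = 0.10).

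**Figure D3:**
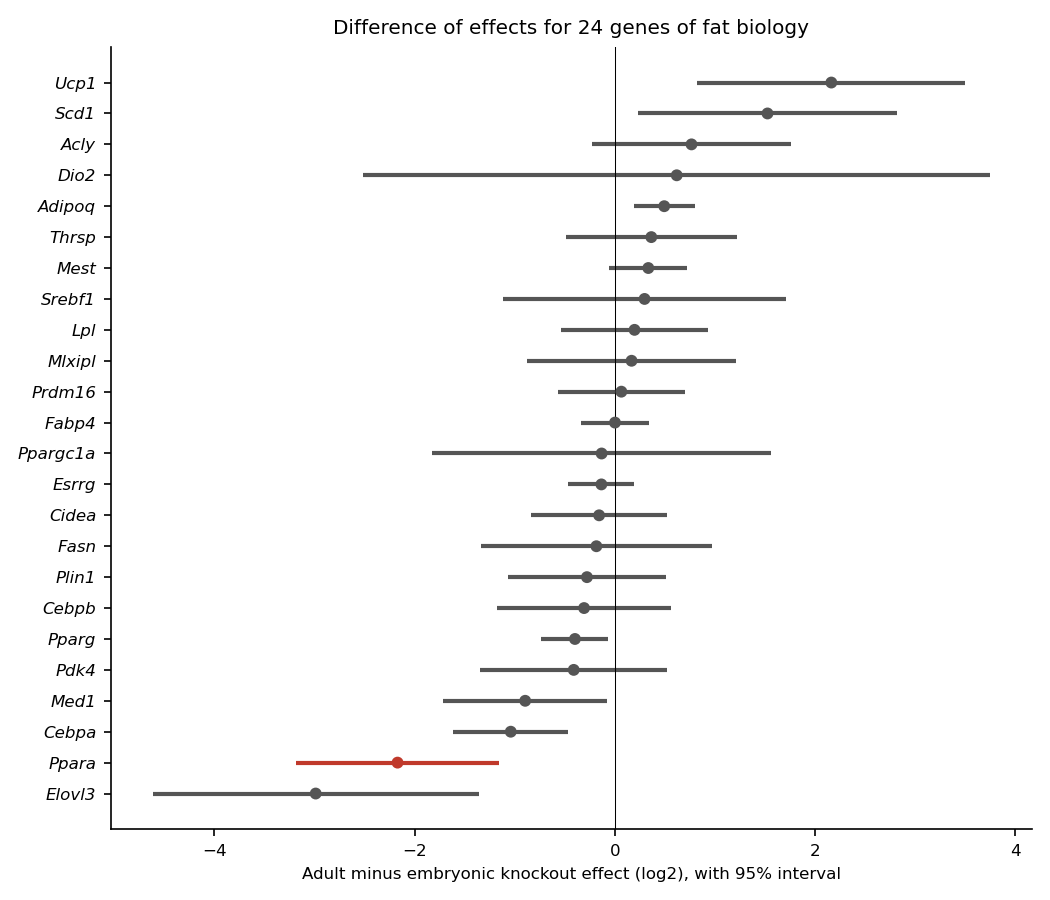
Difference of effects (adult minus embryonic, log2) with its 95% interval for the 24 measured genes of fat biology, ordered by value. Ppara, in red, is the gene whose difference passed after adjustment over all genes. Ucp1 (0.83 to 3.50) and Elovl3 (-4.62 to -1.36) have intervals away from 0 but did not pass, and the same holds for Cebpa, Scd1, Adipoq, Pparg and Med1.

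Over the list of 29 genes of brown fat identity and thermogenesis, 11 fell and 0 rose in the embryo (15 had an unadjusted p below 0.05 in limma). In the adult 8 fell and 3 rose, the 3 being Bmp8b, the secreted hormone Fgf21 and the transcription factor Zic1. Over all genes 1.55% fell and 2.12% rose in the embryo, and 3.14% fell and 4.41% rose in the adult. These shares are the background for the counts of every list below. The list's median effects were -0.52 and -0.62, against -0.012 and 0.002 over all genes, and the median difference was -0.13. The difference passed for Ppara and for Bmp8b, a secreted factor of the BMP family known to raise heat production. Bmp8b was 3.69 and 3.26 in adult controls and 4.91 and 5.70 in adult knockouts, and lay between 3.02 and 3.40 on all embryonic arrays. For Bmp8b the difference was 1.89 ± 0.29, with an adjusted p = 0.0659 when each age had a spread of its own. Cox8b and Cox7a1, subunits of cytochrome c oxidase that are enriched in brown fat, fell in the embryo (-1.64 ± 0.27 and -0.99 ± 0.18) and had adult effects of -0.30 ± 0.35 and -0.20 ± 0.23; these were named after their values were seen, and their differences did not pass. When embryonic control array 3 was left out, 3 members fell in the embryo in place of 11.

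Of 29 mature adipocyte genes, 6 fell in the embryo (1.55% of all genes did) and 11 in the adult (3.14% did). None was called higher at either age, and the median effects were -0.68 and -0.70. The difference passed for 1, Retn, and had a median of -0.03 over the list. When that array was left out, no member was called in the embryo. Of 32 regulators of fat cell formation, 1 had a difference that passed. This was Zfp516, a transcription factor that promotes brown fat genes, with 5.23, 5.57 and 5.55 in embryonic controls and 5.72, 5.75, 6.09 and 5.87 in embryonic knockouts, and 3.90 and 3.86 against 3.36 and 3.49 in the adult. Neither effect passed alone (0.41 ± 0.11 and -0.45 ± 0.15). The difference, -0.86 ± 0.19 (adjusted p = 0.0471), lost its call in each of 11 fits that left out 1 array and kept it in 6 of 12 other settings.

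Among 29 genes of fatty acid oxidation, 17 fell in the embryo and 5 in the adult. The median effects were -0.66 and -0.41, and the median difference was 0.33. Cpt1a rose in the adult and was the 1 member whose difference passed, while Cpt2, the partner enzyme on the inner mitochondrial membrane, fell in the embryo (-0.81 ± 0.16) and had an adult effect of 0.21 ± 0.21. The difference for Cpt2, which was named after its values were seen, was 1.02 ± 0.26 (adjusted p = 0.081). Without embryonic control array 3, the embryonic fall passed for 1 member in place of 17, at a median of -0.57.

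The citric acid cycle and pyruvate entry followed a similar course, with 13 of 27 genes lower in the embryo against 7 lower and 2 higher in the adult. The median effects were -0.54 and -0.26. The 2 genes that rose in the adult were also those whose difference passed, and without embryonic control array 3 neither difference did. Suclg2, the GTP-forming subunit of succinyl-CoA synthetase, was 9.13 and 8.97 in adult controls and 9.63 and 9.78 in adult knockouts, with a difference of 0.91 ± 0.17. Idh1, the cytosolic isocitrate dehydrogenase, fell in the embryo (10.27, 10.14 and 10.31 against 10.00, 9.98, 9.75 and 9.81) and rose in the adult (9.57 and 9.55 against 9.95 and 10.01), with a difference of 0.78 ± 0.14. The call was kept in 4 of 11 fits that left out 1 array for Suclg2 and 8 of 11 for Idh1. Of 43 nuclear genes of the respiratory chain, 18 fell in the embryo and 6 in the adult, with median effects of -0.48 and -0.32. No difference of effects passed for this list in limma (7 had an unadjusted p below 0.05). When embryonic control array 3 was left out, 2 citric acid cycle genes and 1 respiratory chain gene fell in the embryo.

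Genes of triglyceride synthesis moved in both directions in the adult. Of 19 genes, 6 fell in the embryo, and 6 fell and 2 rose in the adult. The 2 that rose were Mogat1, which makes diacylglycerol from monoacylglycerol, and Gpat3, which starts glycerolipid synthesis in the endoplasmic reticulum. Mogat1 went from 3.56 and 4.05 to 5.37 and 5.92 in the adult and lay between 2.97 and 3.43 on all embryonic arrays, with a difference of effects of 2.02 ± 0.25. Gpat3 went from 4.44 and 4.64 to 5.82 and 6.27 in the adult, and its embryonic knockouts (4.43 to 4.98) touched its controls (4.98 to 5.32). The difference for Gpat3 was 1.86 ± 0.26, and both calls were kept in all 23 alternatives. None of the 6 embryonic falls passed without embryonic control array 3. Acsl5, which activates long-chain fatty acids, fell 4.21-fold in the adult, from 9.41 and 8.85 to 6.86 and 7.26. Its difference of -1.81 ± 0.37 was kept in 2 of 11 fits that left out 1 array.

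In the lipolysis list, 3 of 18 genes fell in the embryo and 6 in the adult, and the difference passed for Npr1, the receptor through which natriuretic peptides raise lipolysis. Npr1 was 5.73 and 5.62 in adult controls and 4.71 and 4.66 in adult knockouts, against 5.71, 5.84 and 5.96 in embryonic controls and 5.93 to 6.22 in embryonic knockouts. Between the effects the difference was -1.24 ± 0.17. In glycolysis, the phosphofructokinase isoforms Pfkm and Pfkp moved apart in the adult. Pfkm, the muscle form, fell (6.13 and 5.65 against 4.71 and 4.99) and Pfkp, the platelet form, rose (8.40 and 8.15 against 9.41 and 9.36), with embryonic effects of 0.23 ± 0.15 and 0.01 ± 0.09. The differences were -1.27 ± 0.25 for Pfkm, kept in 2 of 11 fits that left out 1 array, and 1.10 ± 0.15 for Pfkp, kept in all 23 alternatives. The fatty acid synthesis list had no difference that passed in limma (3 of 19 with an unadjusted p below 0.05), and neither had the cholesterol synthesis list (5 of 19).

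Markers of macrophages rose in adult knockouts. Of 25 genes, 18 were called higher in the adult (4.41% of all genes were) and 0 in the embryo, where 6 had an unadjusted p below 0.05. The median effects were 0.17 in the embryo and 1.26 in the adult. The list's mean signal was 4.92 to 5.14 in embryonic controls and 5.06 to 5.31 in embryonic knockouts, which overlap, and 4.54 and 4.37 in adult controls against 5.43 and 5.59 in adult knockouts, which do not. The difference of effects passed for 6 of the 25, all higher.

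The largest of these differences was that of C1qc, a chain of the complement protein C1q that macrophages make. It was 4.17 and 4.12 in adult controls and 5.63 and 5.89 in adult knockouts, and 4.86 to 5.07 against 5.06 to 5.14 in the embryo. Its difference was 1.52 ± 0.14 (adjusted p = 0.0016). Cd14, a receptor for bacterial lipopolysaccharide, went from 3.52 and 3.47 to 4.87 and 5.02 in the adult, with a difference of 1.47 ± 0.17. C1qb, another chain of C1q, had a difference of 1.37 ± 0.23, from 6.63 and 6.89 to 8.35 and 8.32 in the adult. The other 3 that passed, named after their values were seen, were Adgre1, the F4/80 antigen (1.33 ± 0.16), Csf1r, the receptor for macrophage growth factor (1.15 ± 0.18), and Gpnmb, a glycoprotein of lipid-laden macrophages (1.01 ± 0.17). With a spread of its own for each age, 6 differences of the list still passed but no adult effect did.

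Other immune lists had adult calls as well. In the class II antigen presentation list, 4 of 9 genes rose in the adult and 0 in the embryo (1 at an unadjusted p below 0.05), and the difference passed for 3. H2-Aa, a class II alpha chain, was 7.33 and 7.27 in adult controls and 8.64 and 8.71 in adult knockouts, while embryonic knockouts (3.75 to 4.12) overlapped embryonic controls (4.10 to 4.27). Its difference was 1.63 ± 0.16. H2-Eb1, a class II beta chain, had a difference of 1.09 ± 0.20 that was kept in 8 of 11 fits leaving out 1 array, and Cd86, a costimulatory molecule, one of 1.11 ± 0.22 that was kept in 2 of 11 fits leaving out 1 array. Among 17 markers of T, NK and B cells, 4 rose in the adult and 0 in the embryo (2 at an unadjusted p below 0.05), and the difference passed for the same 4. Without embryonic control array 3, the difference passed for 2 class II genes and 1 lymphocyte gene, while the macrophage count stayed at 6. H2-Eb1 and Cd86 lost their calls in that fit, so the 2 class II genes were H2-Aa and 1 not called in the main fit.

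Ptprc, the pan-leukocyte antigen CD45, went from 4.37 and 4.20 to 5.76 and 6.26 in the adult (difference 1.55 ± 0.29), and Cd3e, a chain of the T cell receptor complex, from 3.67 and 3.33 to 4.52 and 4.94 (difference 1.41 ± 0.19). The others were Cd4, the coreceptor of helper T cells (0.83 ± 0.16), and Nkg7, of cytotoxic granules (0.69 ± 0.14), which was named after its values were seen. With 1 array left out, the call was kept in 4 of 11 fits for Ptprc and 3 of 11 for Cd4. The B cell genes Ms4a1, Cd79a and Cd79b did not pass, with differences of -0.11, 0.09 and 0.24. The adult mean signal of the lymphocyte list was 2.87 and 2.73 in controls and 3.13 and 3.30 in knockouts, close to the array medians. Whether more immune cells or more RNA per cell lay behind these adult values was not tested.

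**Figure D4:**
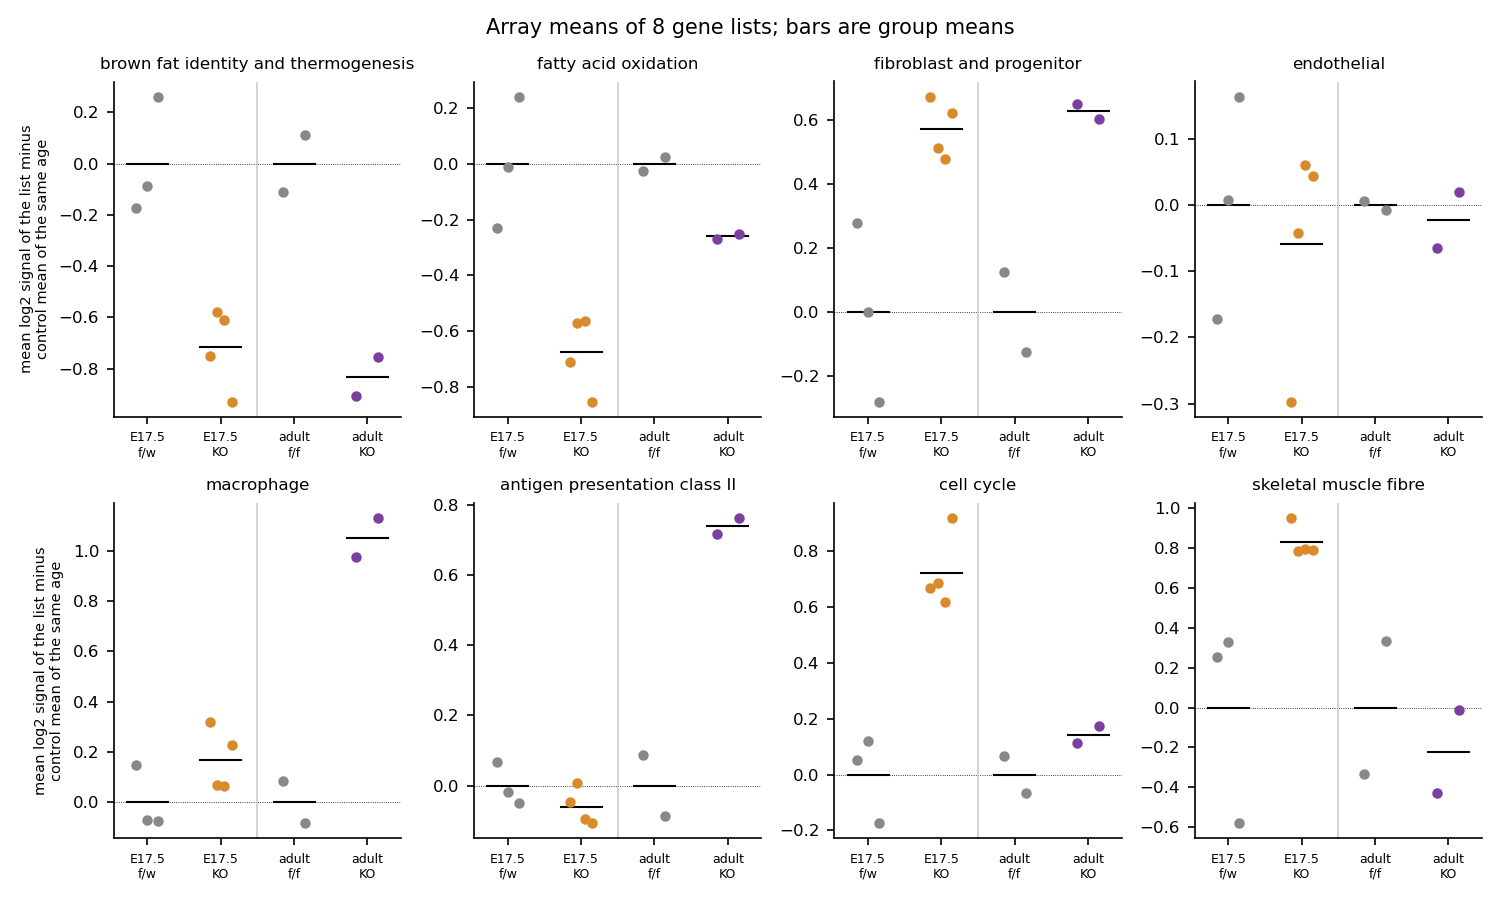
Mean log2 signal of 8 gene lists on every array, minus the control mean of the same age, by group; bars are group means and the vertical scale differs between panels. The macrophage and class II lists are raised in adult knockouts, the cell cycle and muscle fibre lists in embryonic knockouts, the fibroblast list in both, and the endothelial list in neither; embryonic control array 3, the last of its group, is the low one for muscle fibre genes.

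Proliferation genes were called mainly in the embryo. Their list averaged 6.66 to 6.96 in embryonic controls and 7.46 to 7.76 in embryonic knockouts. On the adult arrays it averaged 3.10 to 3.33, close to the array medians (2.87 to 2.89), where changes can be compressed. Of 34 cell cycle genes, 23 rose in the embryo (2.12% of all genes did) and 0 in the adult, where 1 fell and 8 had an unadjusted p below 0.05. The median effects were 0.71 and 0.11, and the difference was negative for 33 of the 34. It passed for Tk1 and Cenpa. Tk1, the thymidine kinase of dividing cells, was 7.12, 7.65 and 7.03 in embryonic controls and 8.30, 8.14, 8.34 and 8.39 in embryonic knockouts, which did not overlap, and 3.96 and 3.57 against 3.58 and 3.64 in the adult, which did. The difference was -1.18 ± 0.25 (adjusted p = 0.0402). Cenpa, the histone variant of centromeres, had an embryonic effect of 0.38 ± 0.11 and fell in the adult (3.27 and 3.11 against 2.73 and 2.54), with a difference of -0.94 ± 0.19. The differences of Tk1 and Cenpa were kept in 2 and 3 of 11 fits that left out 1 array. Without embryonic control array 3, 3 cell cycle genes rose in the embryo, at a median of 0.62.

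The skeletal muscle list had 7 of 35 genes higher in the embryo and 1 lower in the adult, with medians of 0.97 and -0.18 and a median difference of -1.21. Des was the 1 gene whose difference passed, and 16 had an unadjusted p below 0.05. Embryonic control array 3 was low for this list, and without it 2 genes rose in the embryo and the embryonic median was 0.60. The difference then passed for 2 genes, with a median of -0.78. Myf5-Cre acts in muscle precursors too, and the amount of muscle in each dissected sample was not recorded in the labels, so its part in these values was not tested.

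Some markers of fibroblasts and fat progenitors rose at each age. Of 20 genes, 9 rose in the embryo and 6 in the adult, with median effects of 0.60 and 0.63, and no difference passed in limma (3 had an unadjusted p below 0.05). The list's mean was 7.95 to 8.51 in embryonic controls and 8.71 to 8.90 in embryonic knockouts, and 6.66 and 6.41 against 7.18 and 7.14 in the adult. Without embryonic control array 3, 1 member rose in the embryo and 1 difference passed, a lower one. The 18 endothelial markers had no call at either age or in the difference in limma, with 1, 2 and 0 at an unadjusted p below 0.05. Of 32 Mediator subunits, 3 fell in the adult (3.14% of all genes did) and 2 rose (4.41% did). Those that fell were Med1, Med12 and Med9, and those that rose were Med29 and Cdk19. In limma none was called in the embryo (2 at an unadjusted p below 0.05) and none in the difference (5). The subunits other than Med1 were named after their values were seen.

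**Figure D5:**
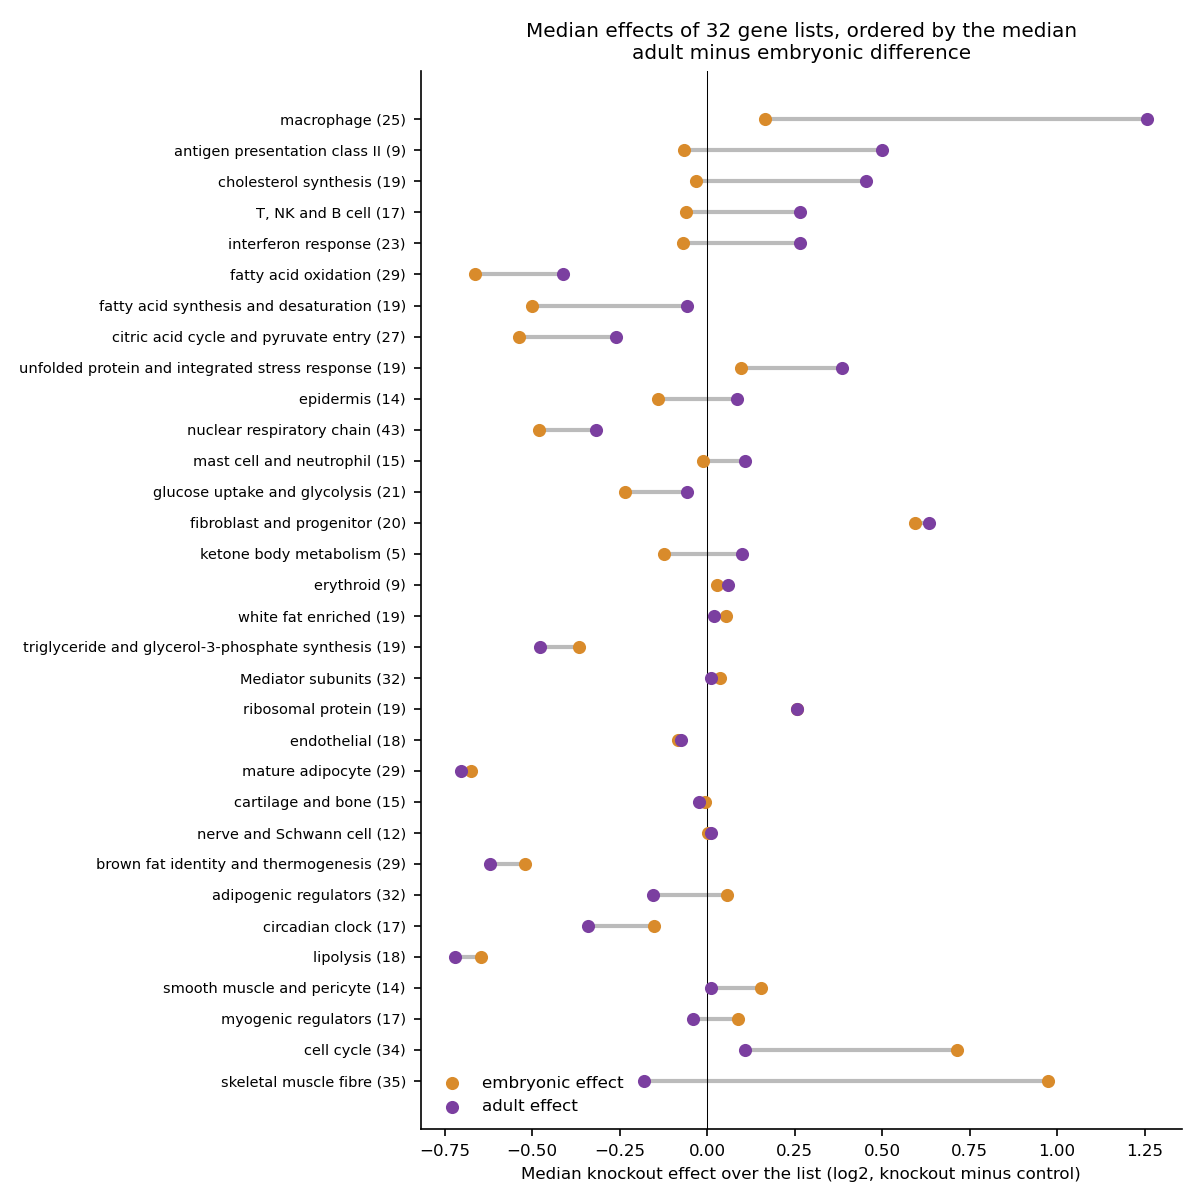
Median embryonic (orange) and adult (purple) knockout effect in log2 units over the measured members of 32 gene lists, with the number of members in parentheses, ordered by the median difference of effects. Macrophage genes (0.17 and 1.26) are at the top, cell cycle (0.71 and 0.11) and muscle fibre genes (0.97 and -0.18) at the bottom, and mature adipocyte genes (-0.68 and -0.70) near the middle.

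A total of 165 genes were called at both ages. They were 20.3% of the embryonic calls, while 7.56% of all genes were called in the adult. They were 9.84% of the adult calls, while 3.67% of all genes were called in the embryo. Both effects were tested on the same estimate of each gene's spread, which favours calls at both ages. With a spread of its own for each age, 6 genes were called in the adult. The 165 had the same direction in 154 cases (0.694% of all genes), 60 higher and 94 lower. Among the 60, the median effect was 0.64 in the embryo and 0.85 in the adult, and among the 94 it was -0.70 and -0.86. The difference of effects passed for 4 of each. Among those that fell at both ages, the smallest sum of the 2 unadjusted p-values belonged to Lncbate10, a long noncoding RNA enriched in brown fat. It went from 7.21, 6.45 and 7.73 to 5.20, 5.18, 5.10 and 4.54 in the embryo and from 6.98 and 7.70 to 3.26 and 3.20 in the adult. The falls were 4.36-fold and 17.3-fold, and the difference of -1.99 ± 0.47 had an adjusted p = 0.0613, or 0.0458 with a spread of its own for each age and 0.0346 without embryonic control array 3.

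Prkar2b, the regulatory subunit of protein kinase A that fat cells use most, fell 1.91-fold and 2.79-fold (10.06, 10.25 and 10.57 against 9.14 to 9.55 in the embryo, 10.62 and 10.80 against 9.39 and 9.06 in the adult). Loxl1, which crosslinks elastin, rose 1.56-fold and 2.02-fold (7.44 to 7.69 against 8.13 to 8.26, and 5.62 and 5.69 against 6.71 and 6.62). Dock10, an activator of small GTPases, rose 1.86-fold and 2.98-fold, and Glb1l, a relative of lysosomal beta-galactosidase, 1.42-fold and 1.95-fold. The groups of these 4 genes were apart at both ages, which choosing them by small p-values favours. None of their differences of effects passed (adjusted p = 0.29, 0.20, 0.17 and 0.068).

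The direction was opposite for 11 of the 165 genes, and the 5 with the smallest sums of their 2 p-values kept their difference of effects in all 23 alternatives. Retreg1, a receptor for the breakdown of endoplasmic reticulum, rose in the embryo (4.73, 4.81 and 4.55 against 5.08, 5.22, 5.33 and 5.34) and fell in the adult (6.92 and 6.86 against 5.60 and 5.97), a difference of -1.65 ± 0.18. H2ac20, a histone H2A gene whose near-identical copies may share its signal, rose in the embryo (7.04 to 7.26 against 7.49 to 7.93) and fell in the adult (3.68 and 3.50 against 2.85 and 2.59), a difference of -1.45 ± 0.19. These 2 were lower in the adult comparison and the other 3 higher.

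Tusc3, a subunit of the enzyme that attaches sugar chains to new proteins, fell in the embryo (9.0, 8.83 and 8.96 against 8.29, 8.25, 8.08 and 7.95) and rose in the adult (5.30 and 4.90 against 5.76 and 6.11), a difference of 1.62 ± 0.21. Ctsd, the lysosomal protease cathepsin D, fell in the embryo (10.23, 10.52 and 10.75 against 9.69 to 10.08) and rose in the adult (10.61 and 10.58 against 11.54 and 11.50), a difference of 1.52 ± 0.20. Cd59a, an inhibitor of complement, fell in the embryo (8.21 to 8.52 against 7.63 to 7.87) and rose in the adult (9.97 and 9.72 against 10.78 and 10.51), a difference of 1.36 ± 0.18. In each of the 5 genes the knockout and control arrays were apart at both ages, which choosing them by small p-values at both ages favours. That choice also favours a difference that passes.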

How the data were processed

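Total RNA was extracted with Trizol and labelled with biotin by the GeneChip WT PLUS kit, per the labels' protocols. The deposited values are log2 signals per transcript cluster, made with RMA in Transcriptome Analysis Console, per the submitters' processing notes; no version is given there, and the genome build is not given in the sources used here. RMA subtracts background, quantile-normalizes and summarises probes, which can compress changes of dim genes. Array medians differ between the ages (3.49 to 3.57 and 2.87 to 2.89), so effects within an age were used and no levels were set across ages.

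Of 41345 clusters, 23521 carry 1 gene symbol, 1814 several and 16010 none. Each of 22180 genes was represented by its cluster of highest mean signal across the 19 arrays. limma 3.58.1 (R 4.3.3) fitted 4 group means over 11 arrays, with 7 residual degrees of freedom. Tests were two-sided and adjusted by Benjamini-Hochberg over all genes, at a threshold of 0.05. The number of arrays limits the precision. The script was tested on simulated data.

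Genes were named by rule: 25 genes of fat biology; the 10 highest and 10 lowest called differences whose arrays did not overlap at 1 age or more, without predicted, microRNA, small nucleolar RNA, receptor-family and antigen-receptor genes; up to 3 called genes per list; and up to 5 genes called alike and 5 called oppositely at both ages. The genes and 32 lists were chosen with earlier results of these data known. Promoters came from RefSeq, GRCm38.p6, in which 58 of 74 named genes had an entry.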

Additional observations from a re-analysis of the deposited data

Results flagged for a closer look

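The adult and embryonic effects differed by limma's test of the difference itself for 441 genes. Among the named genes with higher differences were Cpt1a (3.22), Ptges (3.14), Nr4a2 (3.10), Aqp11 (2.88), Atp4b (2.68), Cdh9 (2.44), Ephx1 (2.36), H2-K1 (2.28), Enpep (2.22) and Orm1 (2.19). Those with lower differences included Cyp2e1 (-4.28), Rhou (-2.56), Ppargc1b (-2.35), Retn (-2.35), Fgfr2 (-2.22), Ppara (-2.17), Des (-2.05), Cks2 (-1.97), Oxct1 (-1.86) and Slc40a1 (-1.84). In lipid and energy metabolism the differences were 2.02 for Mogat1, 1.89 for Bmp8b, 1.86 for Gpat3, 1.10 for Pfkp, 0.91 for Suclg2 and 0.78 for Idh1. They were -1.81 for Acsl5, -1.27 for Pfkm, -1.24 for Npr1 and -0.86 for Zfp516. Among cell cycle genes they were -1.18 for Tk1 and -0.94 for Cenpa.

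Immune genes had differences of 1.63 for H2-Aa, 1.55 for Ptprc, 1.52 for C1qc, 1.47 for Cd14, 1.41 for Cd3e, 1.37 for C1qb, 1.11 for Cd86, 1.09 for H2-Eb1 and 0.83 for Cd4. The genes with opposite calls at the ages had differences of -1.65 for Retreg1, 1.62 for Tusc3, 1.52 for Ctsd, -1.45 for H2ac20 and 1.36 for Cd59a.

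In the embryonic knockout group, the group large enough for Dixon's test, 1 array stood far from the other 3 in 10 of 106 tests. At the 95% critical value used, chance gives about 1 in 20 where values do not tie. Pairs of these arrays had identical values for 1941 to 2674 genes, so that rate is not a firm benchmark. For H2-Eb1 the other 3 arrays all read 4.09. Array 4 was the distant one for Cidea (9.68), Ptges (3.56), H2-K1 (4.98), Cd86 (4.27), H2-Eb1 (3.86) and Lncbate10 (4.54). Array 3 was distant for Enpep (5.24), Cyp2e1 (3.13) and Cd3e (3.23), and array 1 for the mean of the skeletal muscle list (6.75).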

How the results depend on the processing

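The count of 441 differences of effects became 177 with a spread of its own for each age, 773 in a fit of all 19 arrays and 128 with array weights, and 206 to 524 when 1 array was left out, with the share of higher genes moving between 55.9% and 70.6% from 64.6%. The 814 embryonic calls became 257, 1527 and 1494 in those settings, 1233 without dim genes, and 92 to 1089 with 1 array left out. The 1676 adult calls became 6 with a spread of its own and 397 with array weights, and 1145 to 1656 with 1 array left out; an age group left with 1 array was assumed to vary like the other groups. The causes were not tested. Estimated array weights were 0.554 to 0.593 for adult arrays and 0.94 to 2.396 for embryonic arrays.

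Of the 441 genes, 74 kept their call in all 23 alternatives, 138 in all 11 that left out an array and 75 in the other 12. Among the 46 named genes with a called difference, 25 kept it throughout. Genes near 0 changed sign, none of them called. The difference for Cidea was 0.007 with quantile normalization of all 11 arrays, and that for Fabp4 was -0.009 with array weights and -0.005 with array medians subtracted. With 1 array left out, the difference ran from -1.591 to 2.829 for Dio2, -1.336 to 1.073 for Ppargc1a, -0.077 to 0.293 for Prdm16, -0.806 to 0.193 for Cebpb, -0.16 to 0.164 for Fabp4 and -0.677 to 0.122 for Plin1. It ran from -0.212 to 0.607 for Lpl, -0.818 to 0.451 for Fasn, -0.581 to 1.177 for Srebf1, -0.291 to 0.627 for Mlxipl and -0.059 to 0.789 for Thrsp.

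Arrays with the same replicate number did not deviate together throughout in the embryo (correlations of 0.314, -0.021 and 0.11). Different numbers there gave -0.377 to 0.296. In the adult the same number gave 0.335. Different numbers gave -0.335, which groups of 2 arrays fix to the opposite sign. Whether the adult numbers mark pairs cannot be told from the labels, and the main fit did not pair them. With the replicate number as a block, 338 differences passed, 237 of them among the 441, with 680 embryonic and 2034 adult calls.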

Other observations

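Lysosomal genes, a list of 79 written after the values were seen and given here with no test of the list, rose mainly in the adult. Of the 69 measured, 33 rose and 1 fell in the adult, where 4.41% of all genes rose and 3.14% fell. In the embryo 1 rose and 3 fell, where 2.12% of all genes rose and 1.55% fell. The difference of effects passed for 19, all higher (over all genes 1.28% were higher). The median effects were -0.024 in the embryo and 0.489 in the adult. Acp5, the tartrate-resistant acid phosphatase, had the largest difference. It fell in the embryo (5.49, 5.84 and 6.57 against 5.05, 5.11, 5.21 and 4.89) and rose in the adult (8.43 and 8.27 against 9.51 and 9.49), a difference of 2.06 ± 0.33 (limma adjusted p = 0.015). Lamp1, an abundant protein of the lysosomal membrane, was 9.48 and 9.55 in adult controls and 10.13 and 10.04 in adult knockouts, with an embryonic effect of -0.36 ± 0.09 and a difference of 0.93 ± 0.16. Tpp1, a lysosomal peptidase, had effects of -0.05 ± 0.08 and 0.56 ± 0.10. Of the 19 differences that passed, those of Atp6ap1, Ctsd and Gusb kept their call in all 23 alternatives. The others, with Acp5, Lamp1 and Tpp1 among them, did not. The macrophage list rose in the same adult arrays, from 4.54 and 4.37 to 5.43 and 5.59, and its part in these values was not tested.

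Genes of the unfolded protein response included chaperones of the endoplasmic reticulum that rose in the adult. Of 19 genes, 4 were higher in the adult (4.41% of all genes were) and 1 in the embryo (2.12% were). Hsp90b1 and Calr, both chosen after their values were seen, rose by 0.82 ± 0.16 and 0.71 ± 0.11 in the adult. Their embryonic effects of 0.24 ± 0.13 and 0.23 ± 0.08 did not pass, and no difference of the list passed in limma (7 had an unadjusted p below 0.05).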
